A study of Mus musculus with 10 samples.

Results

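The 7 genes described here are Psmb8, Psmb9 and Psmb10, the catalytic subunits that make a proteasome an immunoproteasome; Psme1 and Psme2, the subunits of the PA28 activator; Erap1, the aminopeptidase of the endoplasmic reticulum that trims peptides; and Nlrc5, the transactivator of MHC class I genes. They were chosen by name, as 7 of 32285 genes in the count matrices, and all 7 were measured in every library. Cells came from SW1 tumors, a transplantable mouse melanoma, grown in female C3H/HeJ mice that were 4 to 6 weeks old at injection. Tumor cells were given 10 days to grow before treatment according to the labels, after which mice drank plain water (control) or water with L-fuc (L-fucose, a plant and seaweed sugar). The labels give the dose as 100 mM in one protocol and 100 nM in another, and the mice per arm as 5 and 6. The paper on these data gives 100 mM for SW1 tumors, and more than 10 days before the pretreatment mice were sampled. There was 1 pooled gene expression library per condition: control day 0, sampled before treatment, then control day 7 with L-fuc day 7, and last both groups at day 21. All groups share the tumor line, the strain and the sex, and the mice within a pool were not separated, so no condition has a replicate.

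The proteasome is the barrel-shaped protease that cuts cytosolic proteins into peptides, and its standard form carries the catalytic subunits Psmb5, Psmb6 and Psmb7. Under interferon gamma, cells build barrels with Psmb8 (LMP7), Psmb9 (LMP2) and Psmb10 (MECL-1) in the places of Psmb5, Psmb6 and Psmb7, and cap them with the PA28 ring of Psme1 and Psme2. The peptides are carried by Tap1 and Tap2 into the endoplasmic reticulum, trimmed there by Erap1 and loaded on class I molecules, and Nlrc5 raises transcription of the class I genes and of several partners. Immune cells carry immunoproteasomes without stimulation, and tumor cells acquire them on exposure to interferon.

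Psmb8 (chr17:34197721-34201454, plus strand) and Psmb9 (chr17:34181987-34187764, minus strand) lie in the MHC region on either side of Tap1 (chr17:34187553-34197225), in the GENCODE annotation of GRCm38. Psme1 (chr14:55578123-55581529, plus strand) and Psme2 (chr14:55587441-55591113, minus strand) are neighbours, and Psmb10 (chr8:105935735-105938444), Nlrc5 (chr8:94434356-94527272) and Erap1 (chr13:74639568-74693201) lie elsewhere. Of the 7 genes, 6 have a promoter window of 300 bases in the RefSeq table of GRCm38.p6, from 250 bases before to 50 bases after the start of the transcript, and Nlrc5 does not. The windows were searched on both strands for the core of the interferon-stimulated response element (GAAA, any 2 bases, GAAA) and for the gamma-activated sequence TTCNNNGAA, 2 motifs that do not overlap each other in these windows. The first was found in the windows of Erap1 and Psme1 and the second in that of Psmb8, and the windows of the other 3 genes held neither. The windows of Psmb8, Psmb9 (chr17:34187281-34187580), Psme1 and Erap1 lie inside the genes as GENCODE gives them. Sequence at and before the GENCODE start of these genes was therefore not searched. Among all 32851 windows, 3.44% held the first motif and 8.30% the second. The 3 windows of Psmb8, Psme1 and Erap1 are printed because they hold a match. They read 5′ to 3′ on the transcribed strand, with the match in capitals, and the matches in Erap1 (bases 247 to 256 of chr13:74639603-74639902) and Psme1 (bases 260 to 269 of chr14:55578244-55578543) are on the opposite strand, while that of Psmb8 spans bases 154 to 162 of chr17:34197945-34198244.
Erap1: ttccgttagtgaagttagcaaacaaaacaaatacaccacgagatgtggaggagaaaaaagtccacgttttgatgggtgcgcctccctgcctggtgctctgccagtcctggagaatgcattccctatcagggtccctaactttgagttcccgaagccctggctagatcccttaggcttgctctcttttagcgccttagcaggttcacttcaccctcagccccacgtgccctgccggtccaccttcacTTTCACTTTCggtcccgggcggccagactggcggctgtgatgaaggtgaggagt
Psme1: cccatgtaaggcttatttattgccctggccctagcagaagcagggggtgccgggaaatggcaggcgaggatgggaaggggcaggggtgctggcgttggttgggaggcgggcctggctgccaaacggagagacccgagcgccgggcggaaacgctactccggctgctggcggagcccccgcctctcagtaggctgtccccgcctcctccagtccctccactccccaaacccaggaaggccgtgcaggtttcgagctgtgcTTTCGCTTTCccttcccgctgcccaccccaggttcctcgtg
Psmb8: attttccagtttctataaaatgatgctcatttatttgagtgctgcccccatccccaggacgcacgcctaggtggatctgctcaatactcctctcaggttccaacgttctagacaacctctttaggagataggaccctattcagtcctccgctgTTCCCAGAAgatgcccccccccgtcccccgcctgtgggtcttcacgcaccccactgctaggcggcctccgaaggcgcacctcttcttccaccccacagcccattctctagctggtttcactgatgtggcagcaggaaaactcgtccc
A match of these letters is a description of the window and says nothing of binding.

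Between 1182 and 17897 barcodes per library had at least 500 genes and at most 10% mitochondrial UMIs (unique molecular identifiers, 1 per captured RNA molecule), with 14231519 to 114827373 UMIs in all. Cells were gated by counts: tumor cells had Sox10 and no Ptprc (CD45), macrophages had at least 10 C1q UMIs (C1qa, C1qb and C1qc), and T cells had at least 2 Cd3 UMIs (Cd3e, Cd3d and Cd3g). Tumor cells numbered 260, 8648, 2820, 471 and 297 in the order of libraries given above, macrophages 373, 1253, 1503, 767 and 381, and T cells 393, 968, 1292, 54 and 34. Barcodes that passed more than 1 gate (23 to 693 per library) were set apart, and 258 to 6335 passed none. T cell receptor contigs were found for 47.1% to 80.7% of the T cell barcodes and for at most 0.266% of the tumor cell barcodes. In the tumor cell gate the pigment genes Pmel, Mlana and Dct stayed at or below 2.68 CPM (UMIs scaled to a total of 1000000 per class and library), while Tyrp1 stood at 13.1 to 30.4 and Mitf at 29.0 to 45.5, and macrophages held Mitf at 28.5 to 43.7. The labels name CD45-positive sorted cells, yet a large share of barcodes carried Sox10 without Ptprc, so the gate is called tumor cells by its rule. Sox10, a marker of the tumor cell gate, reached 135 CPM in the T cells of control day 7. Red cell genes summed to 1368, 4116 and 3743 in the tumor cells, macrophages and T cells of L-fuc day 7. The 2 day 7 libraries shared 433 barcode sequences, and the other pairs of libraries 3 to 86. Intervals below cover counting error only.

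Psmb8 carries the chymotrypsin-like activity that favours peptides with hydrophobic ends. In tumor cells it stood at 577 CPM at control day 0, 355 at control day 7, 771 at L-fuc day 7, 697 at control day 21 and 732 at L-fuc day 21. Macrophages held 692, 479, 663, 571 and 531, and T cells 812, 522, 701, 993 and 734 in the same order. Control day 7 was the lowest library in each of the 3 classes. Psmb9, which cuts after hydrophobic and branched residues in place of the acidic preference of Psmb6, stood at 287, 192, 408, 341 and 335 in tumor cells. It stood at 366, 277, 383, 305 and 289 in macrophages and at 379, 299, 421, 460 and 372 in T cells, again lowest at control day 7. Psmb10, the trypsin-like subunit, ranged from 83.1 to 130 in tumor cells, from 127 to 177 in macrophages and from 91.2 to 145 in T cells.

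Psme1 and Psme2, which together open the gate of the barrel, stood lower in tumor cells than in macrophages and T cells of the same library. Psme1 stood at 259, 191, 284, 235 and 255 CPM in tumor cells. It stood at 571, 392, 616, 483 and 426 in macrophages and at 620, 367, 512, 456 and 464 in T cells. Psme2 ranged from 188 to 265 in tumor cells, from 271 to 461 in macrophages and from 323 to 542 in T cells. Psme2b, a near-identical copy on chromosome 11 that can share reads with Psme2, held 2.17 to 17.9 CPM in the 3 classes. Erap1 was lower in control day 7 (30.5) than in the other tumor cell sums (41.6 at control day 0, 41.7 at L-fuc day 7, 61.9 at control day 21 and 64.1 at L-fuc day 21), and it ranged from 24.9 to 30.9 in macrophages and from 33.9 to 40.3 in T cells. Nlrc5 was the sparsest member, with 3.13, 7.89, 13.6, 10.5 and 12.5 in tumor cells, 13.5, 16.8, 20.4, 16.3 and 20.4 in macrophages and 28.9, 44.7, 46.8, 106 and 31.3 in T cells. Its levels in T cells lay above those in macrophages. Those in macrophages lay above those in tumor cells, except that the lowest macrophage value (13.5) fell just below the highest tumor cell value (13.6). The share of all genes that separated the classes in this way was not computed. The day 21 T cell values of Nlrc5 rest on 29 and 12 UMIs.

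**Figure D1:**
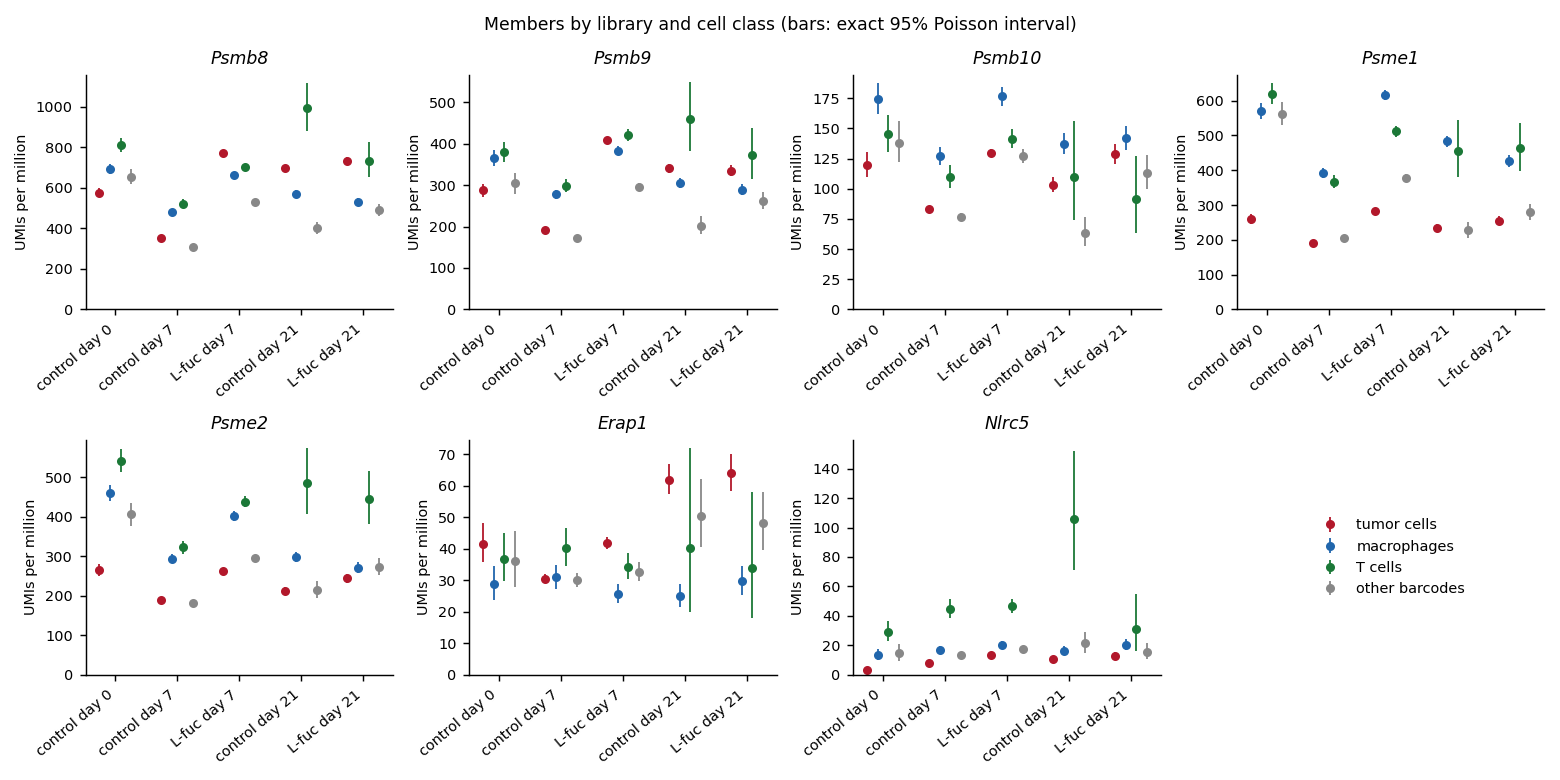
CPM of each of the 7 genes (y axis) in the 5 libraries (x axis), coloured by cell class, with exact 95% Poisson intervals as bars. In tumor cells Psmb8 was lowest at control day 7 (355 against 577 to 771 elsewhere), and Nlrc5 was highest in T cells in every library.

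The classes were compared over the 5 libraries as replicates, on summed counts with the library as a block (edgeR quasi-likelihood test, Benjamini-Hochberg adjustment over 12872 genes). The values are differences on the log2 scale after TMM normalization. The p-values rest on how far the class difference within a library varied over these 5 pools. The pools are also 5 different conditions, so this is not a spread between replicates of 1 condition. Against tumor cells, 6 of the 7 genes were higher in macrophages and 6 of the 7 in T cells, where 35.7% and 33.4% of all genes tested were higher, and none was lower, where 31.5% and 28.7% of all genes were. The exception in both was Erap1, at -0.09 ± 0.14 (SE of the fit, n = 5 libraries, adjusted p = 0.604) and 0.01 ± 0.15 (adjusted p = 0.976). Median differences over the 7 genes were 1.08 and 0.61, against 0.04 and 0.04 over all genes tested. Psme1 had the highest difference in macrophages (1.66 ± 0.14, adjusted p = 1.59e-06), followed by Nlrc5 (1.56 ± 0.26, adjusted p = 0.000332) and Psme2 (1.19 ± 0.14, adjusted p = 2.42e-05). Nlrc5 had the highest difference in T cells (2.62 ± 0.28, adjusted p = 1.73e-05), and the range of the other 5 genes that were higher there was 0.38 (Psmb10, adjusted p = 0.0219) to 1.26 (Psme1). Psmb8 was higher in macrophages by 0.59 ± 0.14 (adjusted p = 0.00345) and Psmb9 by 0.73 ± 0.12 (adjusted p = 0.000311). Scaling to library size alone moved the median of all genes by over 0.5 in macrophages against tumor cells, to -0.60, and under it Psmb8 (-0.05, adjusted p = 0.768) and Psmb9 (0.09, adjusted p = 0.516) were no longer called, while Erap1 was called lower (-0.73, adjusted p = 0.00261). In T cells against tumor cells the same scaling ended the calls of Psmb8 (0.29, adjusted p = 0.107) and Psmb10 (0.10, adjusted p = 0.486), and that of Psmb10 also ended without control day 0 (0.27, adjusted p = 0.128), without control day 7 (0.37, adjusted p = 0.0539) or without L-fuc day 7 (0.19, adjusted p = 0.352). Psme1, Psme2 and Nlrc5 were called higher in both classes with either scaling.

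T cells and macrophages differed in fewer of the 7 genes. Nlrc5 was higher in T cells (1.07 ± 0.28, adjusted p = 0.00924), where 19.1% of all genes were higher. Psmb10 (-0.70 ± 0.13, adjusted p = 0.00113) and Psme1 (-0.40 ± 0.14, adjusted p = 0.0353) were lower, as 21.4% of all genes were. Psmb8, Psmb9, Psme2 and Erap1 differed by -0.12 to 0.09 and did not pass. The call of Psme1 was lost on leaving out any 1 library other than control day 0 (-0.45 to -0.34 over control and L-fuc libraries of days 7 and 21), with library size alone (-0.04, adjusted p = 0.744), with no filter on low counts (-0.43, adjusted p = 0.0767) and with no library block (-0.40, adjusted p = 0.206). It was also lost with strict gates (-0.35, adjusted p = 0.057), with barcodes of several gates counted in each class (-0.27, adjusted p = 0.104) and with the other barcodes added (-0.42, adjusted p = 0.0698). The call of Psmb10 was kept in each of these, and that of Nlrc5 was lost when barcodes that passed more than 1 gate were counted in each class (0.59, adjusted p = 0.122).

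**Figure D2:**
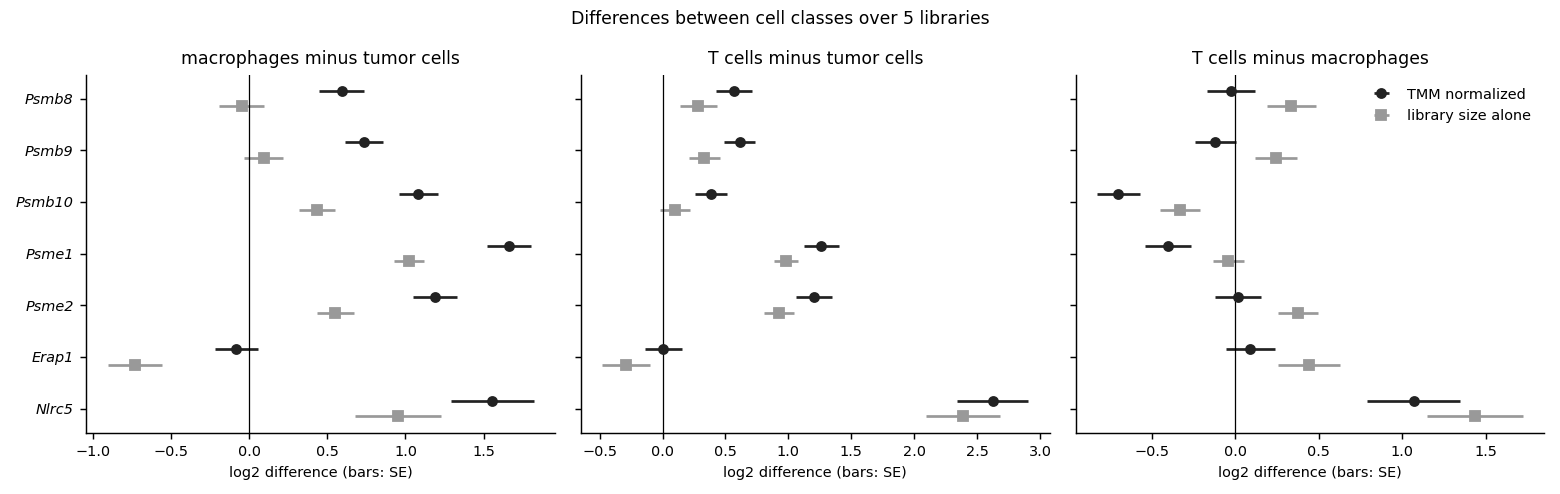
Differences of the 7 genes between cell classes on the log2 scale (x axis), after TMM normalization (black circles) and with library size alone (grey squares). Bars are the SE of the fit to 15 sums from 5 libraries. Psme1, Psme2 and Nlrc5 lay above 0 against tumor cells with both scalings, whereas Psmb8 in macrophages moved from 0.59 to -0.05.

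The standard parts of the proteasome were compared in the same fit, and the lists were not tested against the 7 genes. Of all genes tested, 35.7% were higher and 31.5% lower in macrophages than in tumor cells, and 33.4% and 28.7% in T cells. The counts below are to be read beside these shares, and several lie close to them. Of the catalytic subunits that Psmb8, Psmb9 and Psmb10 replace, Psmb6 (1.05 ± 0.13, adjusted p = 3.41e-05) and Psmb7 (0.40 ± 0.13, adjusted p = 0.0183) were higher in macrophages than in tumor cells and Psmb5 was not called, and in T cells 0 of 3 were called in either direction. Of the other 11 subunits of the barrel, 7 were higher in macrophages, led by Psma1 (1.15), and in T cells 4 were higher and 2 lower than in tumor cells, the lowest being Psmb2 (-0.61). Of 18 subunits of the 19S cap, which unfolds substrates, 6 were higher in macrophages, led by Psmd8 (1.26), and in T cells 5 were lower and 0 higher, the lowest being Psmd7 (-0.68). Psme3, the nuclear relative of Psme1 and Psme2, was higher in macrophages (0.62 ± 0.15, adjusted p = 0.00297) and T cells (0.67 ± 0.16, adjusted p = 0.00348), and Psme4, the single-chain activator PA200, was called in neither.

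Further along the pathway, 6 of 10 genes of class I loading were higher in macrophages than in tumor cells, led by the heavy chain gene H2-K1 (2.69), and 7 were higher in T cells. The 3 that were lower in T cells included the chaperones Calr (-1.14) and Pdia3 (-0.90). Lnpep, the endosomal relative of Erap1, was higher in macrophages (1.10 ± 0.19, adjusted p = 0.000362) and T cells (1.66 ± 0.19, adjusted p = 3.22e-05), and of the 7 peptidases of its list, Lnpep included, 4 were higher and 1 lower in macrophages and 3 higher and 2 lower in T cells. Of 10 genes of interferon gamma signalling, 10 were higher in macrophages, from Socs1 (0.75) to Irf8 (4.22), and 9 in T cells, with the receptor chain Ifngr2 lower (-0.88). Ciita, the class II counterpart of Nlrc5, was higher in macrophages than in tumor cells (1.00 ± 0.33, adjusted p = 0.0194) and lower in T cells than in macrophages (-1.67 ± 0.40, adjusted p = 0.0058), whereas Nlrc5 was higher in T cells than in macrophages. Among the 7 genes of the Nlrc5 and Ciita machinery, 4 were higher and 1 lower in macrophages than in tumor cells, and 3 were higher and 0 lower in T cells. Of 15 interferon-stimulated genes tested, 9 were higher in macrophages than in tumor cells, led by the chemokine gene Cxcl9 (6.96), while T cells had 5 higher and 5 lower. The shares of all genes tested were 35.7% higher and 31.5% lower in macrophages, and 33.4% and 28.7% in T cells. Both T cell counts of the interferon-stimulated genes lie close to these shares.

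The share of the immunoproteasome genes among all UMIs of the 3 catalytic pairs does not depend on library scaling. Over the 3 pairs it was 63.6%, 54.1%, 72.3%, 68.5% and 70.4% in tumor cells, in the order of libraries given above. Macrophages held 66.6%, 62.4%, 70.7%, 67.9% and 69.3%, and T cells 76.5%, 68.0%, 75.9%, 81.1% and 72.4%. Control day 7 was the lowest in each class, and the widest exact 95% interval, in the T cells of L-fuc day 21, ran from 68.8% to 75.9%. T cells were above tumor cells by 8.99 ± 5.68 percentage points (SD, n = 5) and above macrophages by 7.39 ± 4.06, in 5 of 5 libraries each. The exact sign-flip permutation test (two-sided) gave p = 0.062 for both, the smallest that 5 libraries allow, and 0.107 after adjustment over 12 comparisons. Macrophages and tumor cells differed by 1.60 ± 4.13 points (exact permutation p = 0.5625), higher in 2 of 5 libraries. The pairs went different ways in macrophages against tumor cells. The share of Psmb8 over Psmb8 and Psmb5 was higher by 6.57 ± 4.65 points in 5 of 5 libraries, and that of Psmb10 over Psmb10 and Psmb7 by 11.5 ± 1.61 in 5 of 5. That of Psmb9 over Psmb9 and Psmb6 differed by -5.28 ± 4.27 points and was higher in 1 of 5.

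**Figure D3:**
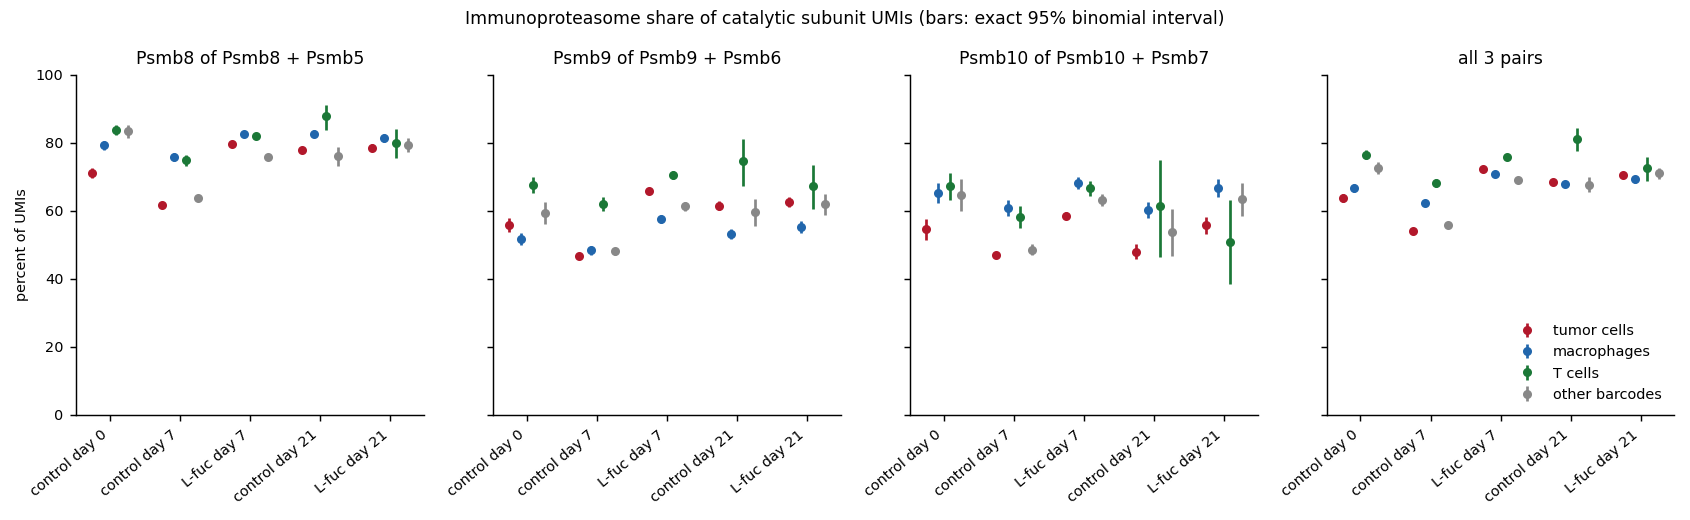
Percent of the UMIs of each catalytic pair that came from the immunoproteasome gene (y axis) in the 5 libraries (x axis), by cell class, with exact 95% binomial intervals as bars. In tumor cells the share over all 3 pairs was 54.1% at control day 7 and 63.6% to 72.3% in the other libraries.

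At day 7 the L-fuc library stood above the control library in 7 of 7 genes in tumor cells, and in 6 of 7 in macrophages and in T cells, where Erap1 stood below 1. In all 3 classes the median ratio of all genes was below 1 (log2 -0.04, -0.22 and -0.16 in the same order). Erap1 thus lay on the side of that median in macrophages and T cells. The share of all genes above 1 was not computed. Each condition is 1 pooled library, so the values below compare 2 libraries and have no test. In tumor cells, Psmb8 was 2.17 times as high in L-fuc as in control (exact 95% counting interval 2.14 to 2.21), Psmb9 2.13 times (2.08 to 2.18), Nlrc5 1.73 times (1.53 to 1.95) and Psmb10 1.56 times (1.5 to 1.62). Psme1 (1.48), Psme2 (1.39) and Erap1 (1.37) were higher too but below 1.5 times. So 4 of 7 genes were at least 1.5-fold higher in tumor cells, where 4.07% of the 13828 genes with at least 30 UMIs were, and 0 were at least 1.5-fold lower, where 7.64% were. The median ratio of all genes on the log2 scale was -0.04 and that of the 7 genes 0.64. In macrophages 1 of 7 genes was at least 1.5-fold higher (Psme1, 1.57) against 3.67% of all genes, and 0 were lower against 21.4%. Psmb8, Psmb9, Psmb10 and Psme2 stood there at 1.37 to 1.39, Nlrc5 at 1.21 and Erap1 at 0.83. In T cells 0 of 7 were higher, against 6.84% of all genes, and 0 lower, against 21.2%, with the 5 proteasome genes at 1.29 to 1.41, Nlrc5 at 1.05 and Erap1 at 0.85. A TMM factor on the L-fuc library size (log2 -0.21 in macrophages and -0.16 in T cells) raised the ratio of every gene. With this factor 5 genes passed 1.5-fold in macrophages and 4 in T cells. The shares of all genes given above are for CPM and do not apply to that scaling, so these 2 counts have no share beside them. Among barcodes outside the 3 gates, 5 of 7 passed, against 16.3% of all genes, led by Psme1 (1.84), and 0 were 1.5-fold lower, against 16.7%. The mix of cells there differed: NK cell barcodes were 211 of 6335 at control day 7 and 490 of 2795 at L-fuc day 7. NK cell markers summed to 212 and 2241 CPM and fibroblast markers to 437 and 1467. Ratios outside the gates, here and below, cannot be told apart from a change in the mix of cells.

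The number of UMIs per barcode also differed, with a median of 7394 in tumor cells at control day 7 and 14040 at L-fuc day 7. With each barcode thinned to 1000 UMIs, 22.6% of 8623 tumor cell barcodes of control day 7 had a Psmb8 UMI and 45.1% of 2800 of L-fuc day 7, and before thinning 63.5% and 91.3%. For Psmb9 the thinned shares were 14.9% and 29.2%. No class here is known to lack these genes, so no background share from free RNA can be set beside them. In the tumor cells of these 2 libraries, macrophage markers summed to 509 at control day 7 and 311 CPM at L-fuc day 7, and T cell markers to 26.0 and 9.57. Red cell markers summed to 580 and 1368, plasmacytoid dendritic cell markers to 489 and 710, mature dendritic cell markers to 211 and 255 and mast cell markers to 2.97 and 6.99. The plasmacytoid sum was nearly all Bst2 (402 to 709 over the 5 libraries), with Siglech, Cox6a2 and Ccr9 at or below 1.63. The mature dendritic cell sum was mostly Fscn1 (203 to 389), with Cacnb3 at or below 8.95 and Ccl22, Ccr7 and Fabp3 at or below 1.79. These sums therefore do not show such dendritic cells in the gate. Of 14 such lists, 4 were higher and 10 lower in L-fuc. Over the tumor cell sums of the 5 libraries, Apoe ran from 143 to 370, C1qa from 2.46 to 59.3, Csf1r from 0.38 to 2.90 and Lck from 0 to 3.06. Marker sums of the other 2 classes differed as well between control day 7 and L-fuc day 7. In T cells, tumor cell markers summed to 269 and 113 CPM and macrophage markers to 970 and 426. NK cell markers there went the other way, at 247 and 825, as did red cell markers, at 1460 and 3743. In macrophages, tumor cell markers summed to 195 and 94.6, NK cell markers to 102 and 509 and red cell markers to 664 and 4116. The part of RNA from other cells in the ratios of the 3 classes was not tested. Ifng, the gene of interferon gamma, stood at 112 CPM in T cells of control day 7 and 322 at L-fuc day 7, and its part in the result was not tested.

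**Figure D4:**
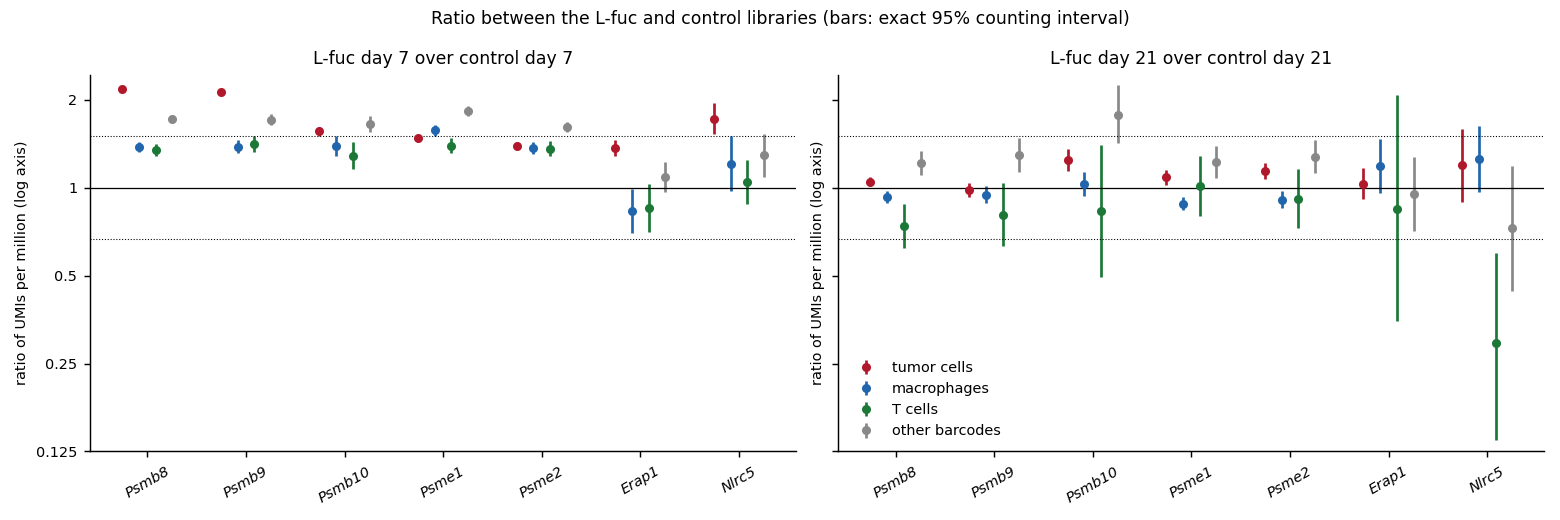
Ratio of CPM in the L-fuc library over the control library (y axis, log scale) for the 7 genes, by cell class, at day 7 (left) and day 21 (right), with exact 95% counting intervals as bars and dotted lines at 1.5-fold. At day 7 Psmb8 and Psmb9 stood above 2 in tumor cells, and at day 21 the ratios in tumor cells lay between 0.98 and 1.24.

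Among the other genes of the pathway in tumor cells at day 7, the standard proteasome stood close to 1. The median ratio was 0.96 for Psmb5, Psmb6 and Psmb7, 1.02 for the other 11 barrel subunits, 1.01 for the 18 cap subunits and 1.00 for the 8 other activators and assembly factors, with none of these genes past 1.5-fold in either direction. Of all genes in tumor cells, 4.07% were at least 1.5-fold higher and 7.64% lower. Genes of class I loading were at least 1.5-fold higher in 7 of 10. They were Tapbpl (1.98), Tap1 (1.97), H2-D1 (1.86), Tapbp (1.82), Tap2 (1.80), H2-K1 (1.66) and B2m (1.53), while the general chaperones Calr, Canx and Pdia3 stood at 0.86 to 0.91. Reads of H2-K1 and H2-D1 from C3H mice were counted against the reference sequence of another strain, which carries other alleles. Of the interferon gamma signalling genes, the transcription factor gene Irf1 (1.60) and Socs1, an inhibitor of the pathway (1.59), were among those past 1.5-fold, and the receptor and kinase genes Ifngr1, Ifngr2, Jak1 and Jak2 stood at 0.83 to 1.05. Of the transactivators, Ciita stood at 2.10 and the other 6 of its list at 0.98 to 1.07. Of 15 interferon-stimulated genes, 11 were at least 1.5-fold higher, led by the GTPase gene Gbp4 (2.69), and Cxcl9 and Ifit2 stood at 0.80.

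In macrophages at day 7 the same lists were closer to 1: 0 of 10 genes of class I loading and 2 of 15 interferon-stimulated genes were past 1.5-fold higher, the highest being Cxcl9 (2.54), where 3.67% of all genes were. In T cells 0 of 10 and 0 of 15 were, against 6.84% of all genes. There 3 of 10 genes of class I loading were at least 1.5-fold lower, where 21.2% of all genes were, the lowest being Canx (0.54).

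**Figure D5:**
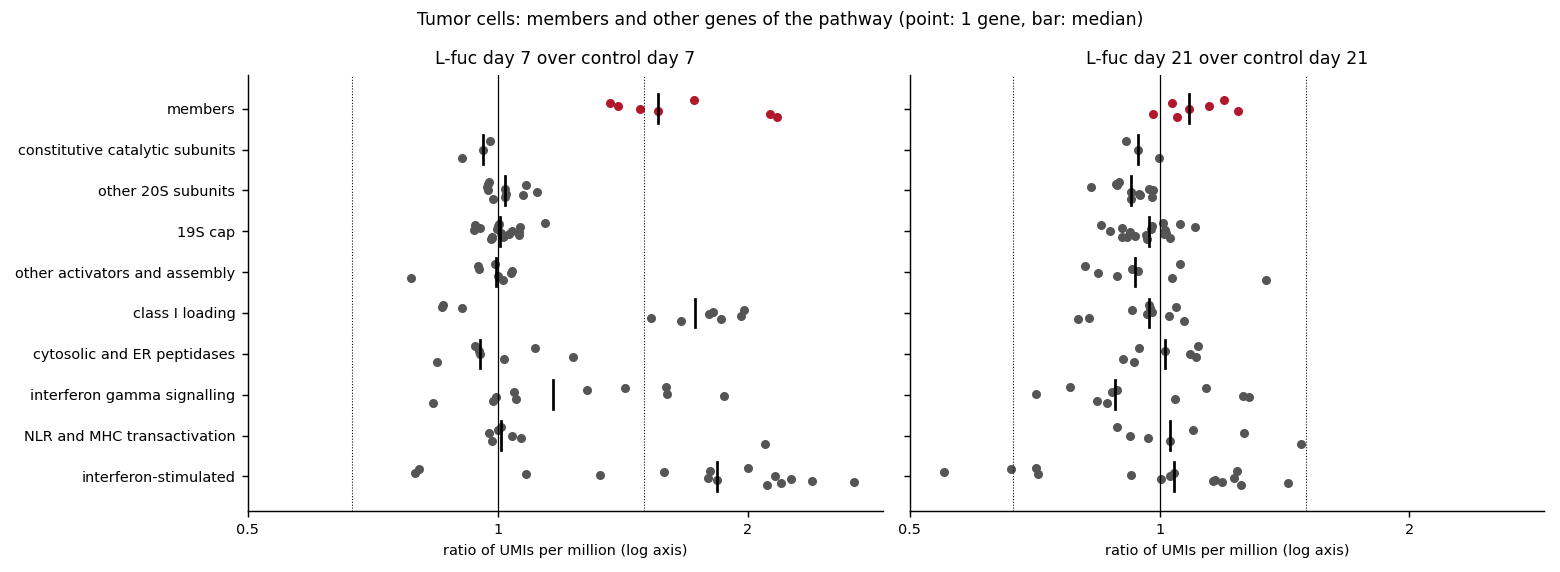
Ratio of CPM in tumor cells of the L-fuc library over the control library (x axis, log scale) at day 7 (left) and day 21 (right), with 1 point per gene, a bar at the median of each list and dotted lines at 1.5-fold. At day 7 the medians were 1.73 for class I loading and 1.84 for the interferon-stimulated genes against 0.96 to 1.02 for the lists of standard proteasome genes, and at day 21 they were 0.97 and 1.04.

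At day 21 the L-fuc and control libraries were closer in the 7 genes. In tumor cells 0 of 7 passed 1.5-fold in either direction, where 4.59% of all genes were higher and 3.83% lower, and the ratios ran from 0.98 (Psmb9) to 1.24 (Psmb10, interval 1.14 to 1.36). In macrophages 0 of 7 passed, where 9.73% of all genes were higher and 3.09% lower, with ratios from 0.88 (Psme1) to 1.26 (Nlrc5, interval 0.96 to 1.63). The median ratio there on the log2 scale was 0.01 over all genes and -0.08 over the 7 genes. The T cells of day 21 were 54 and 34 barcodes, and of the 6 genes with at least 30 UMIs there 0 were 1.5-fold higher, where 15.5% of all genes were, and 1 was lower, where 27.6% were. That gene was Nlrc5 (0.30, interval 0.14 to 0.60), and Psmb8 stood at 0.74 (0.62 to 0.88). The median ratio of all genes in these T cells was -0.18 on the log2 scale. Ifng in T cells stood at 1198 CPM at control day 21 and 219 at L-fuc day 21. Among barcodes outside the gates 1 of 7 was past 1.5-fold higher (Psmb10, 1.78), where 5.81% of all genes were, and 0 were lower, where 21.9% were. The day 7 and day 21 ratios were not tested against each other.

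Among the control libraries, the 5 proteasome members stood lower at day 7 than at day 0 in each of the 3 classes and outside the gates. They also stood lower than at day 21, except Psmb10 in T cells (day 21 over day 7 at 0.998) and outside the gates (0.83). This comparison shares the control day 7 library with the L-fuc ratio at day 7, so the 2 are not independent. Against day 0, tumor cells at day 7 had ratios of 0.62 (Psmb8), 0.67 (Psmb9), 0.69 (Psmb10), 0.74 (Psme1), 0.71 (Psme2) and 0.73 (Erap1). Nlrc5 was the exception at 2.52 (interval 1.49 to 4.64), on 14 UMIs at day 0. At least 1.5-fold lower were 1 of 7 in tumor cells, where 6.82% of all genes were, 1 of 7 in macrophages (6.40%), 3 of 7 in T cells (10.5%) and 5 of 7 among barcodes outside the gates (16.8%). At least 1.5-fold higher were 1 of 7 in tumor cells (Nlrc5, with 24.3% of all genes), 0 in macrophages (40.4%), 1 in T cells (Nlrc5, 1.55, with 39.5%) and 0 outside the gates (46.0%). At day 21 against day 7, tumor cells had Erap1 at 2.03, Psmb8 at 1.96 and Psmb9 at 1.77, so 3 of 7 were at least 1.5-fold higher, where 14.7% of all genes were. In T cells 4 of 7 were (22.5% of all genes), in macrophages 0 of 7 (9.12%), with Psmb8 at 1.19, and outside the gates 2 of 7 (21.9%). None of the 7 was at least 1.5-fold lower at day 21 than at day 7, where 10.2% of all genes were in tumor cells, 26.1% in macrophages, 33.0% in T cells and 25.2% outside the gates. The ratio of Erap1 at day 21 over day 7 was 2.03 (1.86 to 2.21) in tumor cells and 0.81 (0.66 to 0.98) in macrophages, a difference that was not tested. On the log2 scale the median ratio of all genes was 0.15 in tumor cells and -0.16 in macrophages, in the same directions.

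Barcodes outside the 3 gates were divided by markers of other cell types, and their levels are given as pooled sums over the 5 libraries. The 44 cDC1 barcodes, dendritic cells that cross-present antigen, held Psmb8 at 1213 CPM (exact 95% interval 1089 to 1346), Psmb9 at 756 and Psme1 at 1250. Among the gates named by markers, cDC1 were highest for Psmb8 in 5 of 5 libraries, and for Psmb9 and Psme1 in 4 of 5 each. In single libraries of 4 to 14 cDC1 barcodes, Psmb8 stood between 914 (control day 7) and 1464 (L-fuc day 21). The 48 mature dendritic cell barcodes held Psme2 at 1108 (988 to 1238) and were highest for it in 4 of 5 libraries. Single libraries had 1 to 24 of these barcodes and as few as 2 Psme2 UMIs, so that rank is weak. The 91 neutrophil barcodes held Psmb8 at 252 (197 to 317), Psmb10 at 42.0 and Psme1 at 129, and were lowest for Psmb8 and Psme1 in 4 of 5 libraries each and for Psmb10 in 2 of 5. Single libraries had 2 to 44 neutrophil barcodes, with as few as 1 UMI of Psmb8 and 0 of Psme1 and Psmb10, so these ranks are weak too. NK cells (731 barcodes) stood at 487 for Psmb8, B cells (221) at 507, plasmacytoid dendritic cells (105) at 617, Cd209a dendritic cells (63) at 547 and mast cells (65) at 346. The gates drew unevenly on the libraries, and 490 of the NK cell barcodes came from L-fuc day 7. B cell barcodes had a median of 3297.5 UMIs at control day 0, 27029 at control day 21 and 27216 at L-fuc day 21. Differences between gates in these pooled levels are thus mixed with differences between libraries. The pooled immunoproteasome share over the 3 pairs was 58.6% in mast cells, of whose 435 UMIs 383 came from L-fuc day 7, 75.9% in mature dendritic cells and 81.6% in cDC1 (78.7% to 84.3%). The point values of the last 2 were ordered differently between libraries, with exact 95% intervals that overlapped in each library given. At control day 7 mature dendritic cells held 58.9% (50.5% to 67.0%) and cDC1 71.2% (56.9% to 82.9%). They held 82.0% and 80.4% at control day 0, 82.0% and 80.9% at L-fuc day 7, and 88.0% and 83.7% at L-fuc day 21. The last values rest on 3 and 4 barcodes, and the order within a library is not settled. Erap1 ranged from 17.5 in neutrophils, on 5 UMIs, to 48.9 in NK cells. Nlrc5 rested on 11 UMIs in cDC1, mature dendritic cells and neutrophils each (37.8, 39.2 and 38.5) and on 22 in B cells (9.24). The largest of these sums, 3827 barcodes with Ptprc and 4986 without it that met no marker gate, held Psmb8 at 430 and 310. Of these barcodes, 2626 and 3314 came from control day 7.

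Over the 15 sums of 3 classes and 5 libraries, the genes most like each member were found by Pearson correlation of log2(CPM + 1) among 12777 genes, as a description. The sums share libraries and depth. Psmb8 and Psmb9 were nearest to each other (r = 0.94), and the next included H2-T22 (0.91) for Psmb8 and Tap1 (0.84) for Psmb9. The nearest genes were Rnf227, Zbp1 and Phf11b for Psme1 (0.94 each), Tma7, Ifi35 and Abracl for Psme2 (0.91 to 0.95), and Il6, Ccl6 and Ly6i for Psmb10 (0.80 to 0.82). Nlrc5 was nearest to Git2, Nabp1 and Jak2 (0.96 to 0.97), and the genes nearest to Erap1 included Fdft1 and Sf3a1 (0.91 each).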

How the data were processed

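Single-cell gene expression of pooled SW1 tumors was measured in 5 libraries of 10x Genomics droplets. The authors deposited raw UMI counts for every gene in each barcode, and per the labels these were made with Cell Ranger 3.0, although the deposited matrix headers name cellranger 7.1.0. The genome was mm10 per the labels. The deposited receptor contigs of the same pools were used to check the T cell gate, and the clonotype tables were not used.

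Barcodes were kept with at least 500 genes and at most 10% mitochondrial UMIs. Doublets were not called, and barcodes that passed more than 1 gate were set aside. Counts were summed per class and library and scaled to 1000000 (CPM). Classes were compared in edgeR 4.0.16 (quasi-likelihood test, TMM normalization, library as a block, R 4.3.3) on 15 sums, adjusted by Benjamini-Hochberg over 12872 genes and called at an adjusted p under 0.05. The libraries held 14231519 to 114827373 UMIs in kept barcodes. The 15 sums differed in depth, from 273860 UMIs (T cells of control day 21) to 69371045 (tumor cells of control day 7). There is 1 library per condition. Conditions were compared as ratios with exact conditional binomial 95% intervals and no test, for genes that reached 30 UMIs over both libraries. Levels have exact Poisson and shares exact Clopper-Pearson intervals, which cover counting error only.

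The 7 genes, the lists and the alternatives were chosen with earlier results of these data known. Named were the 7 genes, the genes paired with them by role, the highest and lowest gene of each list, and the 3 genes most like each member. Mx1 is not in the matrices under this symbol, and Nrd1 is the symbol used for nardilysin. A few genes that these rules name are not reported here. Other list genes given beside these were chosen after their values were known. The fit was also run on simulated counts in which a small set of genes was raised in T cells alone. Its outcome is not given here, and it does not bear on the scaling between classes. Alternatives were other scalings (including DESeq2 1.42.0), filters, gates and left-out libraries. Positions come from GENCODE vM21 on GRCm38 and promoter windows from RefSeq. Python 3.11.15 with scipy 1.17.1 and pandas 2.3.3 was used for the other steps.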

Additional observations from a re-analysis of the deposited data

Results flagged for a closer look

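For 4 results the ratio of L-fuc over control went opposite ways at day 7 and day 21, with counting intervals that excluded 1 on both days. They were picked by this rule from the ratios of the 7 genes. The share of all genes that meet the rule was not computed, so the count is no result about the 7 genes. In macrophages Psmb8 stood at 1.38 (1.33 to 1.44) on day 7 and at 0.93 (0.89 to 0.98) on day 21. Psme1 in macrophages stood at 1.57 (1.51 to 1.64) and 0.88 (0.84 to 0.93). Psme2 in macrophages stood at 1.37 (1.30 to 1.44) and 0.91 (0.85 to 0.97). Psmb8 in T cells stood at 1.34 (1.28 to 1.41) and 0.74 (0.62 to 0.88), the latter on 54 and 34 barcodes. On the log2 scale the median ratio of all genes in T cells was -0.16 on day 7 and -0.18 on day 21. In macrophages it was -0.22 and 0.01. The intervals here hold for CPM and are not given for another scaling. There is 1 library per condition, so the difference between the days was not tested, and the intervals cover counting error only.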

How the results depend on the processing

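Of 357 comparisons of a class difference with an alternative, 332 kept their direction and side of the threshold. Scaling to library size alone turned Psmb8 in macrophages against tumor cells to -0.049 and raised the genes called lower there from 0 to 1. With that scaling 7421 of all 12872 genes tested were called lower in that contrast. T cells against macrophages changed to 2 higher and 1 lower, where 4675 and 1779 of all genes were. In that last contrast the genes called lower fell from 2 to 1 in several settings. These were no filter on low counts (2739 of all 22601 genes lower), no library block (2485 of 12872) and strict gates (2843 of 12834). The others were barcodes of several gates counted in each class (2212 of 13047) and the other barcodes added (2835 of 13240). With 1 library left out the genes called lower ranged from 1 to 2, where 2238 to 2755 of all genes were. Counting barcodes in each class also left 0 higher there, where 1636 of 13047 genes were. The library block ended no call that its absence kept: without it Psmb8 (0.56, adjusted p = 0.0575) and Psmb10 (0.41, adjusted p = 0.123) in T cells against tumor cells and Psme1 in T cells against macrophages (-0.40, adjusted p = 0.206) were lost. No paired analysis was possible between conditions because they have 1 library each and the mice of a pool were not told apart; the class comparisons are paired by library. Leaving out 1 library moved the share difference of macrophages minus tumor cells between -0.0658 and 2.38 points, turning its sign without control day 7 (-0.0658).

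Counts of the 7 genes past the fold moved as follows, with the cause not tested. The shares of all genes given above hold only for CPM at 1.5-fold with the main gates and filters. No share of all genes is set beside the counts below, so they describe the processing and are not results about the 7 genes. With a fold of 2 in place of 1.5, L-fuc over control at day 7 had 2 higher in tumor cells, 0 in macrophages and 0 among other barcodes, and at day 21 0 higher among other barcodes. Control day 7 over day 0 then had 0 lower in tumor cells, macrophages and T cells, 3 lower among other barcodes and 0 higher in T cells, and day 21 over day 7 had 1 higher in tumor cells, 1 in T cells and 0 among other barcodes. With a TMM factor between libraries, L-fuc over control had 5 higher in macrophages and 4 in T cells at day 7 and 2 among other barcodes at day 21. Control day 7 over day 0 then had 2 lower in tumor cells, 5 in macrophages and 5 in T cells, with 0 higher in T cells, and day 21 over day 7 had 2 higher in T cells. Thinned to 1000 UMIs, L-fuc over control at day 7 had 4 higher and 1 lower in macrophages, and at day 21 2 higher in T cells and 0 among other barcodes. Control day 7 over day 0 had 1 higher and 5 lower in macrophages and 1 higher among other barcodes, and day 21 over day 7 had 1 lower in macrophages and 4 higher among other barcodes. With mitochondrial, ribosomal and Gm42418 UMIs left out, control day 7 over day 0 had 0 lower in macrophages and 0 higher in T cells, and day 21 over day 7 had 2 higher in T cells and 0 among other barcodes. Strict gates gave 0 higher and 1 lower among other barcodes for L-fuc day 21 and 2 higher in T cells for control day 21 over day 7. Without the highest UMI barcodes these were 1 lower among other barcodes and 2 higher in T cells, with 2 lower in macrophages for control day 7 over day 0. A mitochondrial limit of 20% gave 1 lower among other barcodes for L-fuc day 21 and 2 lower in tumor cells for control day 7. A minimum of 1000 genes gave 0 higher in T cells for control day 7 and 1 higher among other barcodes for control day 21. Counting overlaps in each class gave 0 higher in macrophages for L-fuc day 7 and 0 higher in T cells for control day 7.

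Some ratios of single genes turned to the other side of 1. Thinned, L-fuc over control at day 21 gave 0.96 for Psmb8 in tumor cells and 0.90 for Psme1 and 0.92 for Psme2 among other barcodes, and control day 21 over day 7 gave 0.99 for Psme2 in tumor cells and 0.72 for Psme1 in T cells. With the mitochondrial, ribosomal and Gm42418 UMIs left out, control day 21 over day 7 gave 0.98 for Psmb9 and 0.98 for Psme2 among other barcodes. The thinned ratio of Nlrc5 in tumor cells at control day 7 over day 0 could not be given, since no UMI of it was left at day 0.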
